A study of Mus musculus with 8 samples.

Results

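The MYC, MAX and MXD network is a small family of transcription factors, and its 10 genes Myc, Mycn, Mycl, Max, Mxd1, Mxd3, Mxd4, Mxi1, Mnt and Mga were taken by symbol from the 45777 genes of a colonic organoid RNA-seq table. All 10 were found and all 10 passed the filter on low counts. The cultures, epithelial organoids started from crypts of the colon, came from male mice aged 9 weeks and were collected 3 days after passage with no added treatment. The KO group (Reg3aΔIEC, 4 libraries, replicates 5 to 8) carried Reg3a alleles with loxP sites around exons 2 to 4 together with Cre recombinase under the Villin promoter, which is active in the intestinal epithelium. The WT group (Reg3afl/fl, 4 libraries, replicates 13 to 16) carried the same floxed alleles, with no Cre named. The labels give 1 mouse per genotype plated in 4 wells in one place and 3 mice in technical triplicate in another, so the 4 libraries of a genotype may be wells of 1 mouse. The spread that the p-values rest on may then be technical, and genotype cannot be told apart from mouse or organoid line.

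MYC proteins (MYC, MYCN, MYCL) bind DNA only as dimers with MAX, at the E-box CACGTG, and recruit coactivators to genes for growth, ribosome synthesis and cell division. The MXD proteins, MXI1, MNT and MGA compete for MAX and bring corepressors to the same sites. In the intestinal crypt Myc is a known target of Wnt signalling in dividing progenitors, and Mxd1 is known as a gene of maturing, non-dividing cells.

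Library totals lay between 37182098 and 49256171 counts. The targeted gene Reg3a had 0 counts in all 8 libraries, so it could not check the labels. At these depths a count of 0 allows at most 0.0609 to 0.0807 CPM (counts scaled by library size), for counting error only. The 8 epithelial markers (among them Epcam, Cdh1, Vil1, Cdx2) summed to 10513 to 11128 CPM in KO, against 10123 to 10900 CPM in WT. By the edgeR test used below, 2 of the 8 were higher in KO and 0 lower, beside 7.63% and 8.26% of all genes tested. These were Vil1 and Cdx2 (edgeR adjusted p = 0.00208 and 2.4e-04). The 6 fibroblast markers summed to at most 0.371 CPM in KO, against 0.234 CPM in WT, with Col1a2, Dcn and Lum at 0 counts in every library. The 3 endothelial markers reached 1.32 CPM in KO replicate 6, and at most 0.0480 CPM in any WT library. Of 6 immune markers Cd3e was at 0 throughout, and the summed level was 29.5 to 35.1 CPM in KO, against 31.6 to 44.0 CPM in WT. Most of it was Cd68, a lysosomal gene.

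The dimers' binding motif occurs in the promoters of some of the network's own genes. RefSeq promoters (GRCm38.p6, 250 bases before to 50 after a start) were matched for 9 of the 10 members. The member without a matched promoter was Myc, which was therefore not searched. Of these 9, 3 (Max, Mnt and Mxd4) held CACGTG, which reads the same on both strands. The motif was in 7.15% of all 32851 promoters of that length, or in 8.09% of 27025 genes. A match is a string of letters and not shown to be a bound site. The stretches below show where it lies in each, 5′ to 3′ on the strand of the gene, with the E-box in capitals. They lie at chr12:76962234-76962263 (minus strand), chr11:74830789-74830818 (plus strand) and chr5:34187912-34187941 (minus strand). In Max the motif spans the start used for this promoter, which lies inside the annotated gene span (to chr12:76962323).
Max: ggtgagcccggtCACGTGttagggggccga
Mnt: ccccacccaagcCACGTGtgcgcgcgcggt
Mxd4: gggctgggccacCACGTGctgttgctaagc

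The Mxd1 promoter had no CACGTG. It held 4 copies of CCAAT or its reverse complement ATTGG, a motif looked for after the sequence had been seen. At least 1 copy occurred in 37.4% of all promoters and at least 4 in 1.06%, and the Mycl and Max promoters held 0. The cut-off of 4 was the count of Mxd1 itself, so that share is no test. Promoters of the other members were not counted for this motif. Of the 4 copies, 3 lie in the 175 bases upstream of the annotated gene (chr6:86669235-86669409, minus strand), printed with CCAAT in capitals because Mxd1 had the smallest adjusted p of the network.
Mxd1: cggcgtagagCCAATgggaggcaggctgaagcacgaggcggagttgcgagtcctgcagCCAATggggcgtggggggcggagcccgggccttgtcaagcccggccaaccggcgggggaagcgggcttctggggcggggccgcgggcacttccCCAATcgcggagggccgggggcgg

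Within the network, Mxd1, Mycl and Max were lower in KO and no member was higher. The decreases were small: Max fell by 9.40%, Mycl fell by 13.0% and Mxd1 fell by 15.9%. With edgeR's quasi-likelihood test and Benjamini-Hochberg adjustment over 14945 genes, 3 of 10 members passed an adjusted p of 0.05 as lower, where 8.26% of all genes tested did, and 0 of 10 as higher, where 7.63% did. At an unadjusted p under 0.05, 4 members were lower, beside 14.6% of all genes, and 0 higher, beside 14.1%. DESeq2 also called 3 members lower, beside 9.38% of the genes it tested, and 0 higher, beside 9.21%, and limma-voom called 3 lower, beside 7.82%, and 0 higher, beside 7.49%. Mxd1, Mycl and Max were also the members whose KO libraries all lay below every WT library, a separation found for 10.3% of tested genes, while none lay wholly above (9.91% of genes). In bulk RNA, fewer cells of a type and less RNA per cell cannot be told apart.

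**Figure D1:**
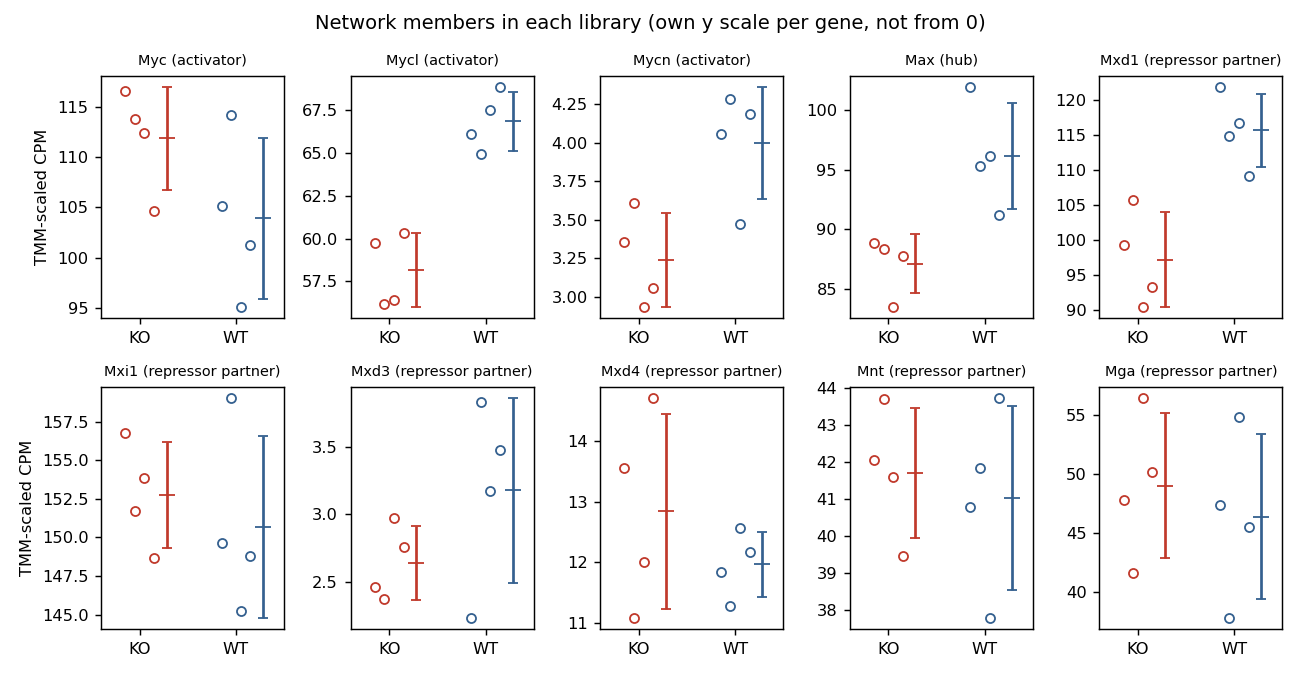
TMM-scaled CPM (y axis, own scale for each gene, not starting at 0) of the 10 network members in each KO and WT library. Open circles are libraries and the bar beside them is the mean ± SD of 4; for Mycl, Max and Mxd1 every KO circle lies below every WT circle.

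Levels of different genes were compared with the authors' TPM (transcript abundance scaled for gene length and depth). The most abundant member was the repressor Mxi1, at 118 ± 2.69 TPM in KO and 113 ± 3.23 TPM in WT (SD of 4 libraries). Myc and Max came next. Myc averaged 93.2 TPM and Max 88.3 TPM in KO, against 84.6 TPM for Myc and 96.1 TPM for Max in WT. The ranges of these 2 genes over the libraries of a genotype overlapped, while within single libraries Max was above Myc in all 4 WT libraries and Myc above Max in 3 of 4 KO libraries. Mxd1 followed at 41.6 TPM in KO and 48.5 TPM in WT, then Mycl at 33.4 TPM in KO and 37.2 TPM in WT. Mxd4 (21.8 TPM in KO, 19.8 TPM in WT) and Mnt (18.0 TPM in KO, 17.4 TPM in WT) overlapped in KO and were separate in WT. Mga (6.73 TPM in KO, 6.17 TPM in WT) and Mxd3 (4.05 TPM in KO, 4.76 TPM in WT) were separate in KO and overlapped in WT. Mycn was the lowest member, at 2.48 TPM in KO and 3.00 TPM in WT. The table counts whole genes, so isoforms, such as those from the 3 annotated promoters of Mxi1, were not separated.

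**Figure D2:**
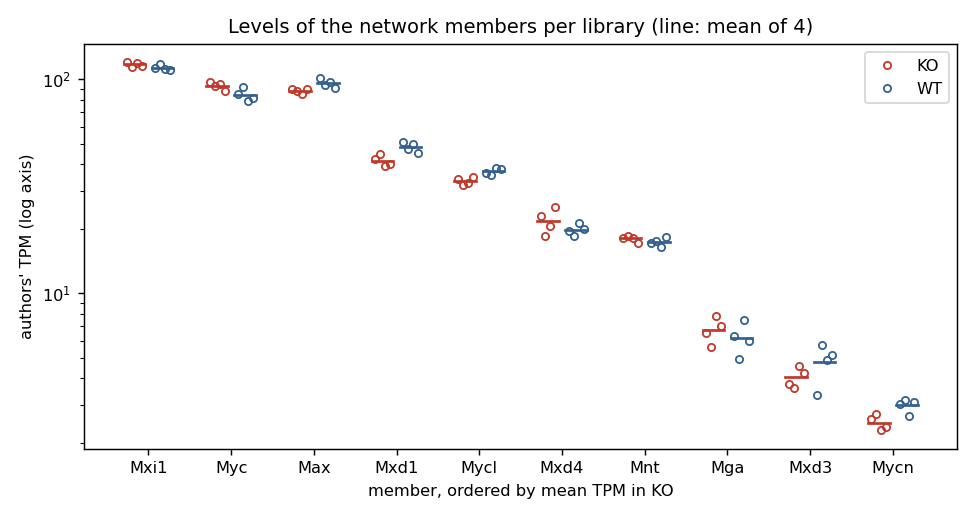
The authors' TPM (log axis) of each member per library, KO left of WT, ordered by the KO mean (line: mean of 4 libraries). Mxi1, Myc and Max lie far above Mga, Mxd3 and Mycn, and the KO points of Myc reach above those of Max while in WT the mean of Max is the higher.

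Myc (NCBI Gene ID 17869, chr15:61985341-61990361, GRCm38) encodes the activator that drives growth in crypt progenitors. It stood at 117, 114, 112 and 105 CPM in KO replicates 5 to 8 and at 105, 114, 95.0 and 101 CPM in WT replicates 13 to 16, scaled by TMM. The KO mean was the higher, but WT replicates 13 (105.1 CPM) and 14 lay within the KO range, which began at 104.6 CPM in KO replicate 8. The log2 fold change was 0.11 ± 0.056 (SE), with a 95% interval of -0.015 to 0.23, and did not pass (edgeR adjusted p = 0.237). Pvt1, a long noncoding RNA gene downstream of Myc on chromosome 15, had 7.80 ± 0.314 CPM in KO, against 6.76 ± 0.178 CPM in WT (SD of 4 libraries). All 4 KO libraries were above all WT libraries for Pvt1, and its log2 fold change of 0.21 ± 0.076 (SE) did not pass either (edgeR adjusted p = 0.0825). Several small genes and an antisense gene overlap exons of Pvt1, and the sources used here do not say whether the counting used strand.

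Mycl (Gene ID 16918, chr4:122995588-123002490) encodes a MYC relative that shares the MAX-binding domain. It stood at 59.7, 56.2, 56.4 and 60.3 CPM in KO replicates 5 to 8 and at 66.1, 64.9, 67.5 and 68.9 CPM in WT replicates 13 to 16. The highest KO library was below the lowest WT library. Its log2 fold change was -0.20 ± 0.045 (SE; adjusted p = 0.00758, edgeR), a call that passed in all 15 other settings in which it was fitted. Mycn (Gene ID 18109, chr12:12936093-12941836), best known from neural and embryonic progenitors, had 142, 175, 139 and 142 counts in KO replicates 5 to 8, and 169, 212, 163 and 155 counts in WT replicates 13 to 16. After scaling these were 2.93 to 3.61 CPM in KO, against 3.47 to 4.28 CPM in WT, and the groups overlapped through WT replicate 15. The log2 fold change of -0.30 ± 0.12 (SE) did not pass (edgeR adjusted p = 0.0986). Without WT replicate 15 it was -0.37 and passed (edgeR adjusted p = 0.0433).

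Max (Gene ID 17187, chr12:76937269-76962323), the partner that activators and repressors share, stood at 88.9, 88.4, 83.5 and 87.8 CPM in KO replicates 5 to 8. In WT replicates 13 to 16 it stood at 102, 95.3, 96.2 and 91.2 CPM. The groups did not overlap, and the log2 fold change was -0.14 ± 0.045 (SE; adjusted p = 0.0476, edgeR). This call was at the threshold. It was lost on leaving out any single KO library, or WT replicate 13, 14 or 15 (adjusted p = 0.0514 to 0.150, edgeR), and with DESeq2 size factors (0.0519), upper-quartile scaling (0.0503) or no filter on low counts (0.0771), while the log2 fold change stayed between -0.17 and -0.11 in every setting.

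Mxd1 (Gene ID 17119, chr6:86647044-86669234, on the same chromosome as Reg3a) encodes the repressor partner known from differentiating epithelial and myeloid cells. It stood at 99.3, 106, 90.4 and 93.3 CPM in KO replicates 5 to 8 and at 122, 115, 117 and 109 CPM in WT replicates 13 to 16. No KO library reached the lowest WT library. The log2 fold change was -0.25 ± 0.054 (SE; adjusted p = 0.00648, edgeR), a call that passed in all 15 other settings. It fell while the absorptive colonocyte markers, of which 6 of 8 were higher and 1 lower in KO (beside 7.63% and 8.26% of all genes), summed to 5269 to 5565 CPM in KO, against 3118 to 3688 CPM in WT. Crypt stem cell markers (5 of 8 lower, 1 higher) summed to 1437 to 1554 CPM in KO, against 1440 to 1748 CPM in WT. Most of that sum was Slc12a2, with a mean of 985 CPM in KO and 1084 CPM in WT, which was not called (edgeR adjusted p = 0.224). Goblet cell markers (5 of 8 lower, 0 higher) summed to 113 to 143 CPM in KO, against 158 to 213 CPM in WT. Proliferating cell markers were lower in 7 of 8 cases and higher in 0. Enteroendocrine markers were lower in 3 of 6 cases, and 1 of 4 tuft markers was high enough to test and was lower, all beside the same 8.26% of genes called lower. The part of these markers in the differences of Mxd1, Mycl and Max was not tested.

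The other repressor partners did not pass the test. Mxi1 (Gene ID 17859, chr19:53310128-53373293), a close relative of Mxd1, had 149 to 157 CPM in KO, against 145 to 159 CPM in WT. Its log2 fold change of 0.019 had a 95% interval of -0.069 to 0.11, the narrowest in the network. Mnt (Gene ID 17428, chr11:74830806-74845725), known as the widely expressed antagonist of MYC, had 39.5 to 43.7 CPM in KO, against 37.8 to 43.8 CPM in WT, with an interval of -0.093 to 0.14. Mga (Gene ID 29808, chr2:119872503-119970129), a scaffold that links MAX to a Polycomb complex, had 41.6 to 56.5 CPM in KO, against 37.8 to 54.9 CPM in WT. Its coefficient of variation within a genotype, 12.6% in KO and 15.2% in WT, exceeded those of Mxi1, 2.24% in KO and 3.92% in WT. Mxd4 (Gene ID 17122, chr5:34176580-34187710) had 11.1 to 14.7 CPM in KO, against 11.3 to 12.6 CPM in WT, with an interval of the log2 fold change of -0.086 to 0.29. Mxd3 (Gene ID 17121, chr13:55325170-55329900), the member known from proliferating cells, had 2.37 to 2.97 CPM in KO, against 2.23 to 3.84 CPM in WT. Its estimate of -0.27 was larger in size than that of Mxd1, but the interval of -0.62 to 0.077 spanned 0. Exons of Mxd3 overlap Prelid1 on the opposite strand, and those of Mxd4 and Mxi1 overlap predicted genes, so their counts are uncertain if strand was not used.

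**Figure D3:**
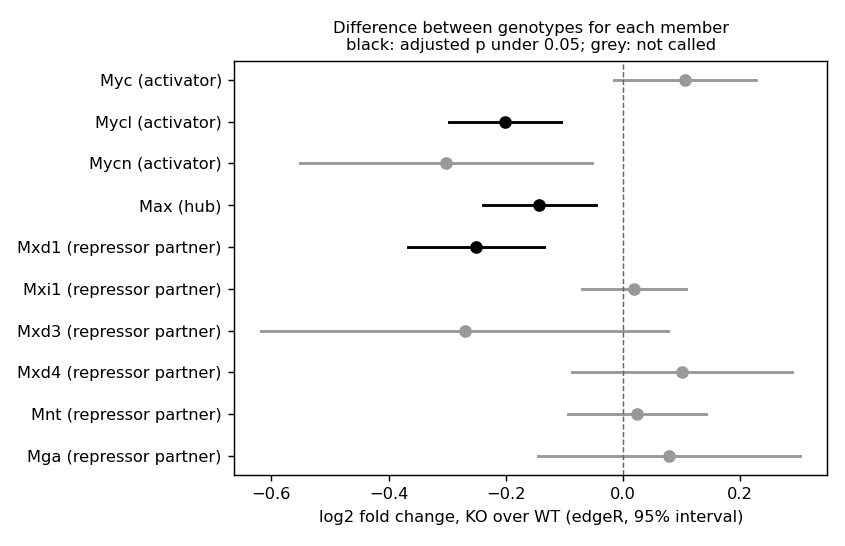
Log2 fold change of each network member, KO over WT, with its 95% interval from the edgeR fit (black: adjusted p under 0.05, grey: not called). Mycl, Max and Mxd1 lie left of 0, the interval of Mycn also lies left of 0 although its adjusted p did not pass, and those of the other members include 0.

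Activators were then set against repressor partners within each library. The summed TPM of Myc, Mycl and Mycn was 125 to 134 in KO and 120 to 131 in WT. That of the 6 repressor partners was 206 to 214 in KO and 206 to 212 in WT, so each TPM sum overlapped between genotypes. In TMM-scaled CPM, not scaled for gene length, the activator sum also overlapped (168 to 180 in KO, 166 to 183 in WT). The repressor sum did not, at 349.1 to 361.9 CPM in KO and 362.7 to 373.7 CPM in WT. The nearest libraries were almost equal. The ratio of the TPM sums was 0.616 ± 0.0129 in KO and 0.594 ± 0.0202 in WT (SD of 4 libraries). This ratio overlapped, at 0.597 in KO replicate 8 and 0.617 in WT replicate 14. These ratios are scores over the members rather than single genes in the fit across all genes, and they are given with no test.

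Within each arm the shares were compared next. Myc made up 70.2% to 73.0% of activator TPM in KO and 65.9% to 70.2% in WT, so the nearest libraries were almost equal. Mxd1 made up 18.6% to 21.7% of repressor TPM in KO and 22.0% to 24.3% in WT. The ratio of Myc to Mxd1 was 2.28, 2.10, 2.42 and 2.18 in KO replicates 5 to 8 and 1.68, 1.94, 1.58 and 1.81 in WT replicates 13 to 16. Every KO library was above every WT library, and the mean log2 difference was 0.36. The ratio of Myc to Max was 0.976 to 1.11 in KO and 0.813 to 0.975 in WT, so the nearest libraries of the genotypes (KO replicate 8 and WT replicate 14) were almost equal. The ratio of Myc to Mycl overlapped, at 2.52 to 2.93 in KO and 2.07 to 2.57 in WT. In these ratios the numerator Myc was itself not called different. The denominators Mxd1, Max and Mycl each lay lower in every KO library than in any WT library, so the ratios partly repeat those differences.

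**Figure D4:**
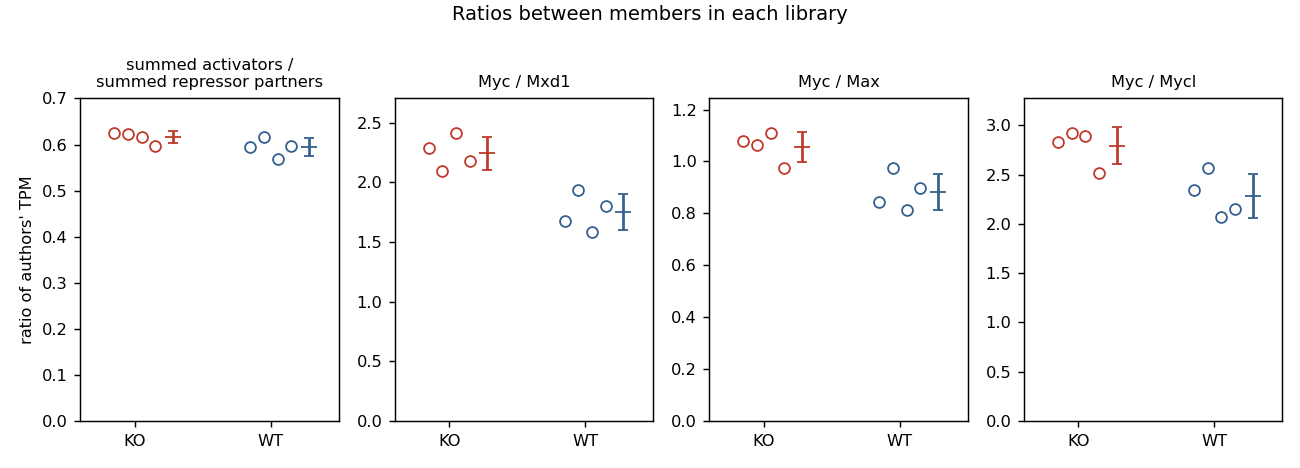
Ratios of the authors' TPM between members in each library (axes from 0; circles: libraries; bar: mean ± SD of 4), KO left of WT. The summed ratio overlaps between genotypes near 0.6, while the ratio of Myc to Mxd1 is above 2 in every KO library and below 2 in every WT library.

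Next, 8 lists of genes that work with the network or lie downstream of it were read from the same fit (126 genes, 125 tested). The lists were written from general knowledge and a listed gene may serve in other pathways. Their counts read against all genes tested, of which edgeR called 8.26% lower and 7.63% higher, 14.6% and 14.1% had an unadjusted p under 0.05 in these directions, and DESeq2 called 9.38% and 9.21%. Of 12 tested MYC coactivators, 2 fell (16.7%, beside 8.26% of all genes) and 0 rose (at an unadjusted p under 0.05, 4 lower and 0 higher; DESeq2 2 and 0). Ruvbl2, an ATPase of the TIP60 and INO80 complexes, had 66.5 ± 2.13 CPM in KO, against 78.0 ± 5.15 CPM in WT (SD of 4 libraries; adjusted p = 0.00854 by edgeR). Kat5, the TIP60 acetyltransferase itself, had 35.6 ± 0.841 CPM in KO, against 40.5 ± 0.280 CPM in WT (edgeR adjusted p = 0.0112, or 0.0524 without KO replicate 8). The list's median log2 fold change was -0.032, beside -0.0012 for all genes tested.

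Of 10 tested MXD corepressors, 1 fell, a share near the 8.26% of all genes, and 0 rose (unadjusted 1 and 0; DESeq2 1 and 0; median log2 fold change -0.032). It was Rbbp4, a histone-binding subunit of SIN3 and other complexes, at 169 ± 2.17 CPM in KO, against 186 ± 7.29 CPM in WT (edgeR adjusted p = 0.0261). That call ended without any single KO library or without WT replicate 13 (edgeR adjusted p = 0.0612 to 0.0873). Of 9 tested genes of the MGA Polycomb complex, 1 fell (11.1%, also near the 8.26% of all genes) and 0 rose (unadjusted 4 and 0; DESeq2 1 and 0; median -0.097). Rnf2, a ubiquitin ligase for histone H2A, had 53.9 ± 1.96 CPM in KO, against 63.3 ± 7.15 CPM in WT (SD of 4 libraries; adjusted p = 0.0383 by edgeR). The Rnf2 libraries overlapped, and its call ended with no low-count filter (0.0654) and on leaving out KO replicate 5, 7 or 8, or else WT replicate 13 or 15 (adjusted p = 0.0779 to 0.121, edgeR).

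Of 11 tested regulators of MYC turnover, 3 fell (27.3%, beside 8.26% of all genes) and 0 rose (unadjusted 3 and 0; DESeq2 3 and 0; median -0.041). Aurka, a mitotic kinase that also stabilises MYC family proteins, had 42.5 ± 1.76 CPM in KO, against 53.5 ± 2.79 CPM in WT (SD of 4 libraries; adjusted p = 7.4e-04 by edgeR). Cip2a, an inhibitor of the phosphatase PP2A, had a log2 fold change of -0.29 ± 0.082 (SE; adjusted p = 0.0274, edgeR), and Skp2, a ubiquitin ligase subunit, -0.38 ± 0.11 (0.0288). Cip2a was not called when any single KO library was left out, or WT replicate 13 or 15 (adjusted p = 0.0506 to 0.0901, edgeR). Skp2 was not called when KO replicate 5, 6 or 8 was left out, or WT replicate 13 or 14 (0.0588 to 0.0974) or with no low-count filter (0.0513).

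Among known MYC target genes, the share called lower was above that of all genes and the share called higher was below it. Of 63 tested (of 64; Dusp2 was too low), 9 fell and 4 rose, or 14.3% and 6.35%, beside 8.26% and 7.63% of all genes, with a median log2 fold change of -0.032 (unadjusted 14 lower and 10 higher; DESeq2 9 lower and 5 higher). Mcm5 and Mcm4, subunits of the replicative helicase, had log2 fold changes of -0.37 ± 0.045 and -0.30 ± 0.062 (SE, edgeR adjusted p = 1.3e-04 and 0.00503). Plk1, a mitotic kinase, had 59.6 ± 2.64 CPM in KO, against 75.2 ± 3.00 CPM in WT (SD of 4 libraries; adjusted p = 4.4e-04 by edgeR). Npm1, the nucleolar protein nucleophosmin, had 742 ± 24.5 CPM in KO, against 887 ± 64.7 CPM in WT (edgeR adjusted p = 0.00312). These 4 passed in all 15 other settings.

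The remaining called targets are named after their values were seen. Those that fell were the nucleolar genes Tcof1 (log2 fold change -0.22) and Fbl (-0.19), the centriole kinase gene Plk4 (-0.28), the cyclin D partner gene Cdk4 (-0.15) and the hexokinase gene Hk2 (-0.16). Those that rose were Tert (0.26), the telomerase catalytic subunit gene, Rrp12 (0.23), a ribosome export gene, Ipo4 (0.17), an importin gene, and Ccnd2 (0.15), a D-type cyclin gene. Each of these 9 calls was lost on leaving out some single library, with an edgeR adjusted p of 0.0526 to 0.164. The libraries were KO replicate 8 for Tcof1, KO replicates 5, 7 and 8 for Fbl and Hk2, KO replicates 5, 7 and 8 and WT replicates 13 and 14 for Cdk4, and KO replicates 6, 7 and 8 and WT replicates 13 and 15 for Plk4. For genes that rose they were KO replicates 5, 6 and 8 and WT replicate 13 for Ipo4, KO replicates 5, 7 and 8 and WT replicates 13, 14 and 16 for Ccnd2 and Rrp12, and KO replicates 5, 6 and 7 and WT replicates 13, 14 and 15 for Tert. Other processing also ended some calls: of 15 other settings, Ccnd2 kept its call in 8, and Rrp12 and Tert in 7 each. In the main fit Rrp12 (edgeR adjusted p = 0.0435) and Tert (0.0498) were near the threshold, and the Tert libraries overlapped. The count of targets that rose was 0 without KO replicate 5 or WT replicate 13, 1 on leaving out KO replicate 7, KO replicate 8 or WT replicate 14, 2 on leaving out KO replicate 6 or WT replicate 16, and 1 with no low-count filter. The count that fell was 5 without KO replicate 7 and 4 without KO replicate 8. Proliferating cell markers, which include Mki67, Top2a and the helicase gene Mcm2, fell in 7 of 8 cases and summed to 977 to 1029 CPM in KO, against 1142 to 1325 CPM in WT. Their part in the counts of targets and of MYC turnover genes was not tested.

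The E-box was in the promoter of 17 of the 55 MYC target genes with a RefSeq promoter (30.9%), beside 8.09% of all genes. The list had been written as one of MYC targets, so that share describes how it was chosen.

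Among 8 tested genes of the MIZ1 list (MIZ1 itself and genes that MYC is known to repress through it or in other ways), 2 fell (2 of 8, beside 8.26% of all genes) and 0 rose (unadjusted 3 and 1; DESeq2 2 and 0; median -0.13). Ndrg1, a stress and differentiation gene, had 1099 ± 39.9 CPM in KO, against 1295 ± 47.1 CPM in WT (SD of 4 libraries; adjusted p = 0.00113 by edgeR). Gadd45a, a growth-arrest gene, had 26.4 ± 2.26 CPM in KO, against 32.6 ± 0.994 CPM in WT (edgeR adjusted p = 0.00412). The parallel MLX arm, whose dimers share the E-box and respond to glucose, had 0 of 3 genes called (unadjusted 1 lower, DESeq2 1 lower). Mlx stood at 88.7 ± 0.727 CPM in KO, against 85.1 ± 4.48 CPM in WT, and Mlxip at 56.4 ± 2.61 CPM in KO, against 60.9 ± 5.28 CPM in WT. The gene with the unadjusted call, named after its value was seen, was Mlxipl, the glucose-responsive factor ChREBP, at 7.97 ± 0.956 CPM in KO, against 10.2 ± 1.46 CPM in WT (log2 fold change -0.35; edgeR adjusted p = 0.0501). Their 10 target genes had 0 called (unadjusted 1 higher, DESeq2 1 higher, median 0.023). The target with the unadjusted call, also named after its value was seen, was Elovl6. It stood at 103 ± 5.68 CPM in KO, against 93.2 ± 4.06 CPM in WT (log2 fold change 0.15, edgeR adjusted p = 0.0601). Txnip, a glucose-induced gene, stood at 1144 ± 47.1 CPM in KO, against 1107 ± 47.8 CPM in WT, and Fasn, fatty acid synthase, at 330.1 ± 15.9 CPM in KO, against 330.7 ± 42.5 CPM in WT.

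**Figure D5:**
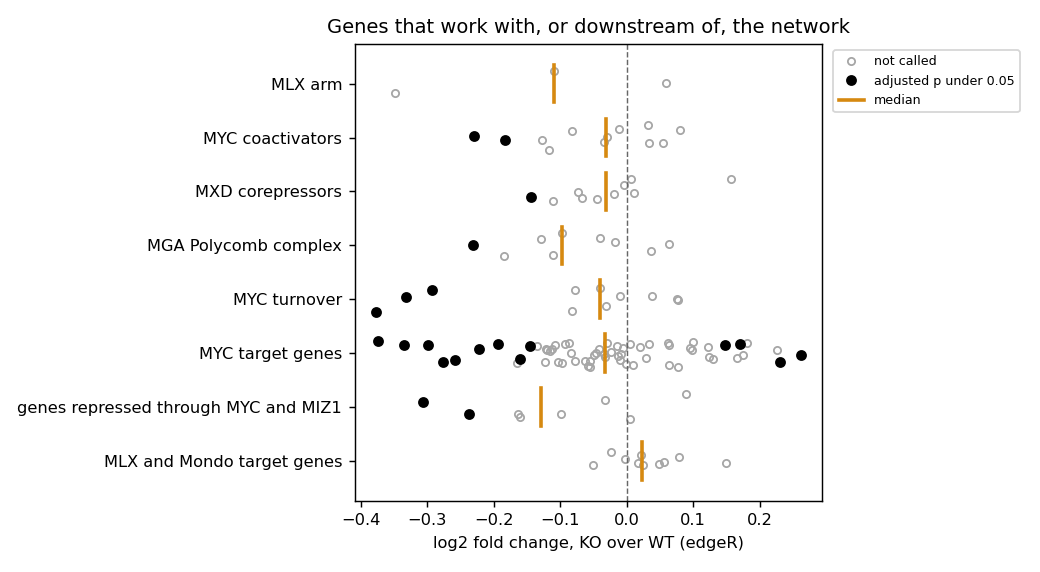
Log2 fold change, KO over WT, of each tested gene in 8 lists linked to the network (black: edgeR adjusted p under 0.05, grey: not called, orange: list median). Called genes lie mostly left of 0, and the 4 called to the right of it are MYC target genes.

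Finally, the genes whose pattern over the 8 libraries was most like that of Mxd1 and of Mycl were sought among 10529 tested genes with a mean of at least 5 CPM. Likeness was the root mean square difference of log2 CPM after each gene was centred on its mean. The measure takes in the genotype difference itself. Nearest to Mxd1 were Hspa5 (0.034 on the log2 scale), the endoplasmic reticulum chaperone gene, Zfand5 (0.037), Sat1 (0.040), a polyamine-catabolism gene, Map3k3 (0.043), a kinase gene, and Kif23 (0.043), a cytokinesis motor gene. Their log2 fold changes lay between -0.26 and -0.22. Nearest to Mycl were Dlg3 (0.029), Cct5 (0.031), a chaperonin subunit gene, Rmnd5b (0.034), Acss1 (0.035) and Klc1 (0.035), a kinesin light chain gene, with log2 fold changes between -0.22 and -0.17. All 10 were called lower in KO, as a likeness to a lower gene favours (edgeR adjusted p = 0.00112 to 0.0163). Without KO replicate 7, Dlg3, Rmnd5b and Map3k3 were not called (edgeR adjusted p = 0.0547, 0.0595 and 0.0534), nor was Map3k3 without KO replicate 8 (0.0614) or WT replicate 13 (0.0540).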

How the data were processed

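The deposited table holds, for each gene and library, the authors' raw read counts (whole numbers, not normalized), the authors' FPKM and the authors' TPM. Per the submitters' processing notes, HTSeq, Bowtie2, TopHat and TopHat2 were among the tools and GRCm38 was the build, with neither versions nor roles. In every library more genes had 2 counts than 1, so both mates of a pair may have been counted, and a count of 0 then allows 6 counts rather than 3.

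Low counts were removed by filterByExpr, TMM set the scaling, and edgeR 4.0.16 (R 4.3.3) gave a quasi-likelihood test of KO against WT, with Benjamini-Hochberg adjustment over all genes tested and a threshold of 0.05. CPM values use TMM. Errors are SDs over 4 libraries. For a fold change, the SE is its size over the square root of F. TPM was used to compare genes and for ratios between members, with no test. The fit was tested on simulated data. Libraries of a genotype differed by more than sampling noise, and WT libraries by more than KO libraries. Chi-square per degree of freedom was 4.96 to 10.7 within KO and 11.1 to 24.7 within WT. Alternatives were other scalings and filters, DESeq2 1.42.0, limma-voom (limma 3.58.1), an adjusted p of 0.01, and leaving out each library.

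Members and lists were chosen with earlier results of these data known. Named were all members, Reg3a, Pvt1, up to 4 called genes per list (smallest adjusted p; the 2 most abundant where none passed), and the 5 genes most like each of the 2 members with the smallest adjusted p.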

Additional observations from a re-analysis of the deposited data

Results flagged for a closer look

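Of 80 groups of 4 libraries screened for 1 library far from the other 3, over the members, the other genes named by rule and the main ratios, 3 stood out, and chance flags about 1 group in 20. Skp2 had 5.76 CPM in KO replicate 7, against 4.35 to 4.59 CPM in the other KO libraries. Klc1 had 48.9 CPM in KO replicate 5, against 45.6 to 45.8 CPM in the others. Kat5 had 40.9 CPM in WT replicate 14, against 40.3 to 40.4 CPM in the other WT libraries, a small gap in a tight group. None of these 3 was a network member.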

How the results depend on the processing

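No paired analysis was possible because the genotypes share no library numbers. Over 150 combinations of a member and another setting, 137 kept the direction and the side of the threshold. The exceptions were Max (10 settings, given above), Mycn without WT replicate 15, and 2 uncalled members whose sign changed: Mga (-0.0072 without WT replicate 14; -0.0072 to 0.17 over single libraries left out) and Mnt (-0.014 without WT replicate 15; -0.014 to 0.056). Called members numbered 2 or 3 lower and 0 higher in every setting. The difference in log2 ratio, KO minus WT, kept its sign in every setting. It was 0.029 to 0.069 for activators over repressor partners and 0.31 to 0.41 for Myc over Mxd1. Library scaling cancels in such ratios, so the authors' FPKM repeats the TPM ratios and TMM-scaled CPM differs from them only by gene length. For Myc over Mxd1, leaving out a library could not change the sign, since every KO library lay above every WT library. With an adjusted p of 0.01, 562 genes were higher and 597 lower, of the 8 lists 0 higher and 8 lower, and of the MYC targets 0 higher and 4 lower. Higher genes numbered 1 over the 8 lists and 1 among MYC targets with no low-count filter, and 2 and 2 with limma-voom. Leaving out single libraries gave 696 to 1386 genes higher and 724 to 1404 lower, 0 to 7 higher and 8 to 19 lower over the 8 lists, and 0 to 6 higher and 4 to 10 lower among MYC targets. Fasn, at about 0, changed sign to 0.00071 (DESeq2 size factors), 0.0024 (library totals), 0.00037 (upper quartile), 0.0021 (no filter), 0.0018 (DESeq2), 0.0079 (limma-voom), and 0.024, 0.013, 0.021 and 0.078 without KO replicate 5, KO replicate 6, WT replicate 13 and WT replicate 16 (-0.058 to 0.078 over single libraries left out). The causes were not tested. Depth limits Mycn and Mxd3 most, at 93 to 212 counts per library.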
